A study of Mus musculus with 24 samples.

Results

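The response of 4T1 cells to TGF-beta was read from 8 miRNA arrays, 4 of cultures given TGF-beta and 4 of cultures, called basal in the labels, in which a compound blocked the type I receptor for TGF-beta. These are the arrays whose sample titles begin with 4T1, 8 of the 24 arrays of the series. The 4T1 line is a mouse mammary carcinoma line that the labels describe as highly metastatic. Its cells had grown for 6 days in organotypic culture, that is, in a gel that lets cells form tissue-like structures, and the microenvironment was either compliant (soft) or rigid (stiff). The 4 groups of 4T1 are therefore compliant with inhibitor, compliant with TGF-beta, rigid with inhibitor and rigid with TGF-beta, with 2 arrays each, which the labels number as set 1 and set 2. No 4T1 culture lacked both agents, so every rise or fall below is TGF-beta relative to receptor inhibition, and what TGF-beta added and what the inhibitor took away cannot be told apart. The labels give neither the doses nor the name of the inhibitor, and all groups come from this single cell line. They also do not say whether the sets were separate cultures, so p-values measure the spread between arrays, which may be technical.

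The rest of the series repeats the same design in 67NR and 4TO7, sister lines that the labels call nonmetastatic and systemically invasive. Of 558 probes for mouse miRNAs, 334 to 357 were detected on each 4T1 array, and 365 were tested after a filter that used all 24 arrays. Of the 365, 6 were detected on no 4T1 array and passed through another line. Values below are quantile normalised log2 intensities, and each difference is on the log2 scale, where 1 is a doubling. Tests are limma's moderated tests over all 24 arrays, two-sided, with Benjamini-Hochberg adjustment over the 365 probes, and a miRNA is said to have risen or fallen where the adjusted p was under 0.05. The 2 arrays of each 4T1 group had a Pearson correlation of 0.995 to 0.998 over the miRNAs, and the SD within a group, pooled over miRNAs, was 0.080 to 0.128. Pairs of a TGF-beta and an inhibitor array, over both microenvironments, correlated at r = 0.984 to 0.989. In a principal component analysis of the 8 arrays, the first component held 62.0% of the variance and separated the 4 TGF-beta arrays from the 4 inhibitor arrays, and the second held 14.5% and separated compliant from rigid culture. The 8 arrays lay on 4 slides, and slide 3 held 3 of the 4 TGF-beta arrays and no inhibitor array of this line, so slide and treatment are partly confounded.

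TGF-beta binds paired type I and type II receptors. The type I receptor is a kinase that phosphorylates SMAD proteins, which then act on transcription with other factors and can also aid the processing of some primary miRNA transcripts. In mammary carcinoma cells the pathway is known for epithelial-mesenchymal transition, in which epithelial cells lose contacts and become motile. A miRNA is cut from a hairpin and pairs with its targets mainly through its seed, bases 2 to 8 from the 5' end, so miRNAs with a shared seed can share targets. The strand kept in most cases is the guide, and the other, marked with an asterisk in the older names on this array, is the passenger strand.

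Mature sequences were found in RefSeq (GRCm38.p6) for 73 of the 116 miRNAs that rose or fell, and these carried 51 distinct seeds. The older names give no arm for many probes, and the arm was then taken from the known renaming of that miRNA. The sequences that follow are those on which the results turn, the leading miRNAs and the pairs with a shared seed, with the seed in capitals.
miR-146a: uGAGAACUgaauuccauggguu
miR-146b: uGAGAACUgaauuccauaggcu
miR-181a: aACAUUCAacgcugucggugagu
miR-181b: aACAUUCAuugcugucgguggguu
miR-181d: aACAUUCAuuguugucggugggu
let-7i: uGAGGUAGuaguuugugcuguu
let-7b: uGAGGUAGuagguugugugguu
miR-22: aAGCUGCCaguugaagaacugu
miR-221: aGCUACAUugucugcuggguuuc
miR-222: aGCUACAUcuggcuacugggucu
miR-193: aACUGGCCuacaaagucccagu
miR-193b: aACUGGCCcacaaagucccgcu
miR-210: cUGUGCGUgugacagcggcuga
miR-15a: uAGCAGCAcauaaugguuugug
miR-16: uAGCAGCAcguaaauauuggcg
Positions are counted from the 5' end. The miR-146 pair differed at 2 of 22 bases, G18A and U21C from miR-146a to miR-146b, and miR-181b and miR-181d at 1 of 23, C12U. The members of the miR-221 pair differed at 12 of 23 bases, all outside the seed, and let-7i and let-7b at 3 of 22. Probes of such close relatives may cross-hybridise, which was not tested.

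TGF-beta changed 116 of the 365 tested miRNAs in 4T1 (31.8%), of which 46 rose (12.6%) and 70 fell (19.2%). The changes were mostly small. The median size among the 116 was 0.25, the median difference over all tested miRNAs was 0.02, and 5 miRNAs passed 2-fold (1.37%): miR-146a and miR-22 upward, and miR-210, miR-222 and miR-221 downward. Past 1.5-fold, 9 were higher (2.47%) and 6 lower (1.64%). The 4 TGF-beta arrays did not overlap the 4 inhibitor arrays for 77 tested miRNAs (21.1%), with TGF-beta higher for 33 (9.04%) and lower for 44 (12.1%), and 70 of the 77 were among the 116. The split between rises and falls rests on the scaling. The authors' deposited value table, in which 338 miRNAs were tested, gave 77 rises and 55 falls. Over the 365, median scaling over the probes detected on all arrays gave 68 and 56. No normalization between arrays gave 21 and 8 with a median over all tested miRNAs of 0.16. The sign was kept by 109 of the 110 of these miRNAs that the authors' table holds. Adding slide to the fit as a fixed block left 50 calls, 18 higher and 32 lower, of which 48 were among the 116. As a random block, with an estimated correlation within slides of -0.018, it gave 117 calls that held all 116. Slide and treatment stay partly confounded in both fits.

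**Figure D1:**
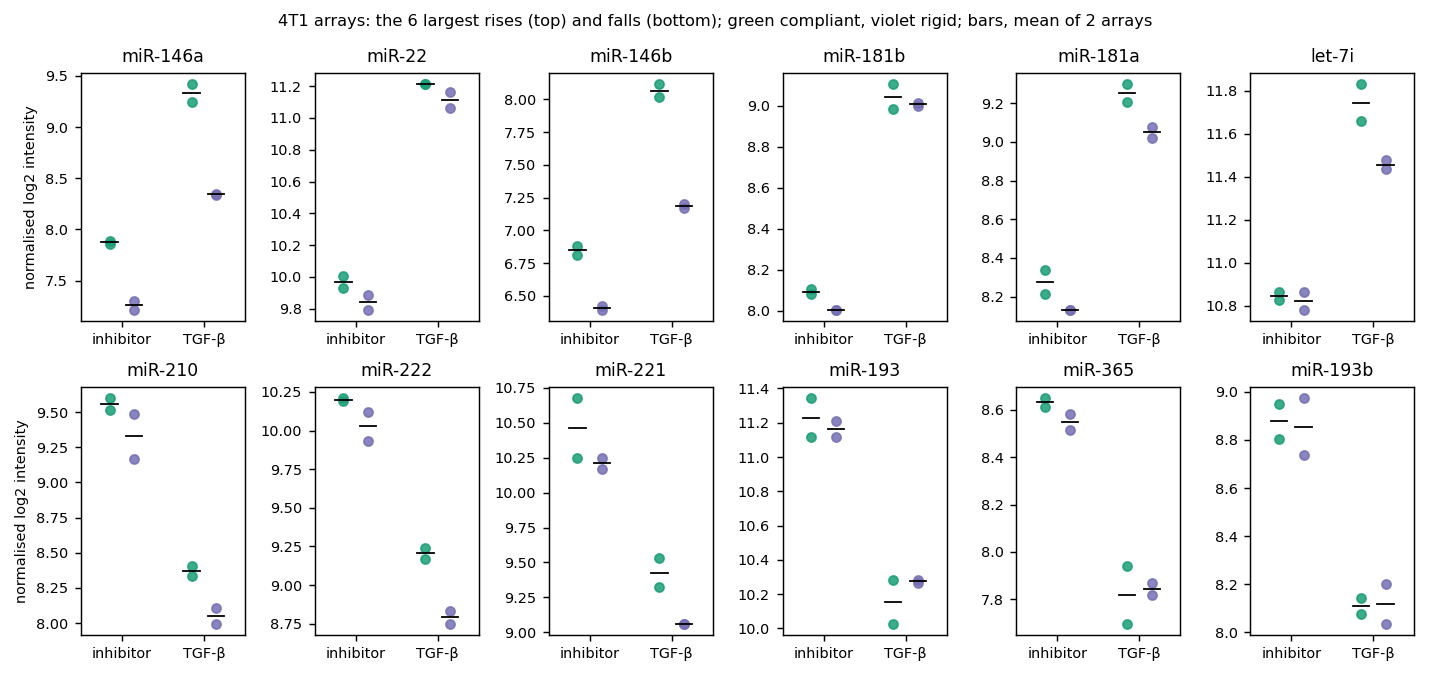
Normalised log2 intensity on each 4T1 array (points; green compliant, violet rigid culture) for the 6 largest rises (top row) and the 6 largest falls (bottom row), with inhibitor and TGF-beta cultures side by side and a bar at the mean of 2 arrays. Each panel has its own vertical range, which does not start at 0. In all 12 panels the 4 TGF-beta arrays lie wholly above or wholly below the 4 inhibitor arrays, as for miR-22, at 9.79 to 10.01 with inhibitor and 11.06 to 11.21 with TGF-beta.

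The largest rise was that of miR-146a, which NF-kappa-B induces and which represses the signalling adaptors IRAK1 and TRAF6. With inhibitor it stood at 7.86 and 7.89 in compliant culture and at 7.30 and 7.22 in rigid culture. With TGF-beta it stood at 9.42 and 9.24 in compliant and at 8.34 and 8.35 in rigid culture. Every TGF-beta array was above every inhibitor array, and within each treatment the compliant arrays were the higher. The mean rise was 1.27 (SE 0.06, 2.41-fold, adjusted p = 3.44e-11, 4 arrays against 4). Its relative miR-146b moved from 6.82 and 6.88 to 8.11 and 8.02 in compliant culture. In rigid culture miR-146b moved from 6.40 and 6.42 to 7.17 and 7.20. The groups did not overlap, and the rise was 1.0 (SE 0.05, adjusted p = 9.97e-11). The genes lie on different chromosomes, Mir146 at chr11:43374397-43374461 and Mir146b at chr19:46342762-46342870 (GRCm38.p6), where the annotation puts the second within the long noncoding RNA gene Gm36493.

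MiR-22, which lies in the noncoding host gene Mir22hg (chr11:75463716-75463810) and is known to repress TET enzymes, rose by nearly the same amount. Inhibitor arrays read 9.93 and 10.01 in compliant and 9.79 and 9.88 in rigid culture. TGF-beta arrays read 11.21 and 11.21 in compliant and 11.16 and 11.06 in rigid culture. All TGF-beta arrays were higher, and the microenvironments differed little within a treatment. The rise was 1.26 (SE 0.06, 2.39-fold, adjusted p = 3.57e-11). Its passenger strand miR-22* rose too, by 0.48 (SE 0.06, adjusted p = 5.66e-06), and was detected on all 4 TGF-beta arrays and on none of the 4 inhibitor arrays. Set against the background level, miR-22* was 1.40-fold higher with TGF-beta. The reference was the higher of its own signal and the dimmest detected probe on each inhibitor array. On every inhibitor array that was its own signal, so the value is the fitted difference without allowance for its SE.

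The miR-181 family, whose member miR-181a has been linked to metastasis of mammary carcinoma, rose in 3 of 4 tested members, against 12.6% of all tested miRNAs, with a median of 0.68. The family was chosen with earlier results of these data known, so this count is descriptive. MiR-181b stood at 8.08 and 8.11 (compliant) and 8.01 and 8.01 (rigid) with inhibitor. With TGF-beta it stood at 8.99 and 9.10 and at 9.01 and 9.0. The rise of 0.97 (SE 0.04, adjusted p = 2.51e-11) was as large in rigid as in compliant culture, at 1.0 and 0.95. MiR-181a went from 8.21 and 8.34 to 9.21 and 9.30 in compliant culture and from 8.13 and 8.13 to 9.08 and 9.02 in rigid culture, a rise of 0.95 (SE 0.04, adjusted p = 2.51e-11). MiR-181d rose by 0.42 (SE 0.04, adjusted p = 1.80e-07). The arrays of the treatments did not overlap for any of these 3 members. The fourth member tested, miR-181c, gave -0.02 and was not called. The genes of miR-181a and miR-181b are each encoded next to the other at 2 places, on chromosome 1 (Mir181a-1 at chr1:137966455-137966541) and on chromosome 2 within Nr6a1 (Mir181a-2 at chr2:38852735-38852810). The passenger strand of the chromosome 2 copy, miR-181a-2*, rose by 0.33 (SE 0.05, adjusted p = 3.03e-05), and that of the chromosome 1 copy, miR-181a-1*, gave 0.09 (adjusted p = 0.142).

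Let-7i rose while 4 others of the let-7 family fell. The let-7 miRNAs share the seed GAGGUAG and repress growth genes such as Ras genes and Hmga2. Let-7i read 10.83 and 10.86 (compliant) and 10.86 and 10.78 (rigid) with inhibitor, against 11.66 and 11.83 and 11.43 and 11.48 with TGF-beta. No array overlapped, and the rise was 0.76 (SE 0.06, adjusted p = 4.77e-08). Of the other family members tested, let-7b (-0.29), let-7c (-0.19), let-7e (-0.23) and let-7f (-0.24) fell. The remaining 4 did not pass, with let-7g at 0.21 (adjusted p = 0.102), let-7a at -0.05, let-7d at -0.03 and miR-98 at -0.17. The authors' deposited value table and median scaling over the probes detected on all arrays each gave 2 rises and 5 falls in the family. Of the 4 falls, that of let-7e alone was called with slide as a block, 2 of the 4 were called without the compliant inhibitor array of set 2, and none without normalization. Among the 12 seeds shared by 2 or more called miRNAs with a sequence, this was the 1 whose members moved in both directions. Mirlet7i is a gene on its own (chr10:122985640-122985724), while Mirlet7b and Mirlet7c-2 neighbour each other on chromosome 15.

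MiR-132, which CREB controls and whose gene neighbours that of miR-212, read 8.34, 8.56, 8.45 and 8.39 on the inhibitor arrays (compliant sets 1 and 2, then rigid sets 1 and 2). On the TGF-beta arrays, in the same order, it read 9.02, 9.19, 9.26 and 9.21. The arrays did not overlap, and the rise was 0.74 (SE 0.05, adjusted p = 1.33e-08), while miR-212 gave 0.07 and did not pass. MiR-34a, a p53 target that represses cell-cycle genes and Met, read 9.0, 8.99, 8.96 and 8.86 with inhibitor. With TGF-beta it read 9.77, 9.56, 9.51 and 9.50, a rise of 0.63 (SE 0.05, adjusted p = 6.12e-08) with no overlap. MiR-135b, which represses Apc, was not detected with inhibitor, but with TGF-beta on 3 of 4 arrays. Its inhibitor readings of 6.29, 6.21, 6.12 and 6.26 are thus background, and with TGF-beta it read 6.87, 6.76, 7.10 and 7.03. Against these background readings it was 1.65-fold higher with TGF-beta. This is the fitted difference without allowance for its SE, and it includes the TGF-beta array that did not detect miR-135b. MiR-135b met the detection filter only through a TGF-beta group of 4T1, the side where it is high. Its call and its place among the leading rises are therefore no independent support.

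MiR-21, an abundant miRNA that represses Pdcd4 and whose processing SMADs are known to aid, rose by 0.57 (SE 0.08, adjusted p = 7.87e-05). Quantile normalization gave it the same value, 13.40, on all inhibitor arrays, where it ranked 8 from the top, and 13.97 on all TGF-beta arrays, where it ranked 6. Under median scaling its levels were 13.10 and 13.75 (compliant) and 13.31 and 13.48 (rigid) with inhibitor, against 14.09 and 14.08 and 13.87 and 13.90 with TGF-beta. On either scale no array overlapped, and over the alternatives run the rise was 0.45 to 0.79. MiR-149, from within Gpc1, rose by 0.50 (SE 0.025, adjusted p = 1.10e-10), from 7.76 and 7.74 to 8.37 and 8.28 in compliant and from 7.34 and 7.33 to 7.79 and 7.74 in rigid culture. It rose in each microenvironment, but its levels were lower in rigid culture, so that the 4 arrays of the treatments overlap. MiR-665, of the imprinted Dlk1-Dio3 cluster, rose by 0.56 (SE 0.07, adjusted p = 1.18e-05). MiR-290-5p, of a cluster known from embryonic stem cells, rose by 0.33 (SE 0.08, adjusted p = 0.00330) with overlapping arrays, and with slide as a fixed block it gave 0.28 (adjusted p = 0.204).

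The largest fall was that of miR-210, the best known miRNA of the hypoxia response. It stood at 9.51 and 9.60 (compliant) and 9.49 and 9.17 (rigid) with inhibitor, and at 8.41 and 8.34 and 8.11 and 8.0 with TGF-beta. All TGF-beta arrays were lower, by 1.23 on average (SE 0.09, 2.34-fold, adjusted p = 1.52e-08). Its gene lies at chr7:141221384-141221493.

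MiR-221 and miR-222, neighbouring X-linked miRNAs with a shared seed that repress the cell-cycle inhibitor Cdkn1b (p27), fell together. MiR-222 went from 10.19 and 10.21 to 9.24 and 9.17 in compliant and from 10.12 and 9.93 to 8.83 and 8.75 in rigid culture. MiR-221 went from 10.25 and 10.67 to 9.53 and 9.32 in compliant and from 10.25 and 10.17 to 9.06 and 9.06 in rigid culture. Neither overlapped between the treatments. The falls were -1.11 (SE 0.05, adjusted p = 3.25e-11) for miR-222 and -1.09 (SE 0.09, adjusted p = 6.45e-08) for miR-221. Mir221 lies at chrX:19146294-19146388 and Mir222 at chrX:19146893-19146971, on the same strand.

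MiR-193, miR-193b and miR-365 also fell together. MiR-193b is known to repress Plau, the urokinase protease of invading cells. MiR-193 read 11.11, 11.34, 11.21 and 11.11 with inhibitor (compliant sets 1 and 2, then rigid sets 1 and 2) and 10.03, 10.28, 10.28 and 10.26 with TGF-beta, a fall of -0.98 (SE 0.06, adjusted p = 3.70e-09). MiR-193b read 8.80, 8.95, 8.97 and 8.74, then 8.07, 8.14, 8.20 and 8.04, a fall of -0.75 (SE 0.07, adjusted p = 2.21e-07). MiR-365 read 8.61, 8.65, 8.52 and 8.58, then 7.70, 7.94, 7.87 and 7.82, a fall of -0.76 (SE 0.06, adjusted p = 6.17e-08). For all 3, each TGF-beta array was below each inhibitor array. Mir193b and Mir365-1 are neighbours on chromosome 16 (Mir193b at chr16:13449523-13449601), and Mir193a and Mir365-2 lie on chromosome 11 (Mir193a at chr11:79711969-79712034), so miR-365 has a copy near each. The passenger strand miR-193* gave -0.14 (adjusted p = 0.0300), missed the threshold with slide as a block (-0.11, adjusted p = 0.295), and turned to 0.0074 without normalization. It was also not called without the compliant inhibitor array of set 1, the compliant TGF-beta array of set 2 or any single rigid array, with adjusted p from 0.0565 to 0.109 and values from -0.14 to -0.11.

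Both strands of the miR-31 hairpin fell. MiR-31, reported elsewhere as a suppressor of breast cancer metastasis, fell by 0.28 (SE 0.08, adjusted p = 0.0156), and the second strand, miR-31*, fell by 0.56 (SE 0.04, adjusted p = 2.94e-08). MiR-31* read 9.19, 9.24, 9.19 and 9.26 with inhibitor and 8.63, 8.77, 8.67 and 8.57 with TGF-beta, without overlap. The fall of miR-31 was not called without the compliant inhibitor array of set 2, at -0.15 (adjusted p = 0.0745). It also missed the threshold without the compliant TGF-beta array of set 1 (-0.24, adjusted p = 0.0513), the rigid inhibitor array of set 1 (-0.23, adjusted p = 0.0663) or the rigid TGF-beta array of set 1 (-0.24, adjusted p = 0.0617).

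The other leading falls were of 0.39 to 0.47. MiR-100, which represses mTOR, fell by 0.47 (SE 0.04, adjusted p = 3.64e-07), and miR-26a, which represses Ezh2, by 0.41 (SE 0.06, adjusted p = 6.35e-05). MiR-15a (-0.43), miR-15b (-0.41) and miR-16 (-0.42), which share a seed and repress Bcl2 and cyclins, fell with adjusted p = 0.000150, 0.000246 and 0.00139. They gave -0.36, -0.31 and -0.22 with slide as a block, and none of the 3 was called (adjusted p = 0.0591, 0.0997 and 0.281). MiR-16 overlapped between treatments, at 10.31 and 10.47 against 9.71 and 9.74 in compliant culture and 10.67 and 10.67 against 10.45 and 10.56 in rigid culture. MiR-30b (-0.42, adjusted p = 0.00139) gave -0.34 with slide as a block and was then not called (adjusted p = 0.107), and miR-32, of the miR-92 seed family, fell by 0.39 (SE 0.07, adjusted p = 0.000691). MiR-715 gave -0.43 (SE 0.12, adjusted p = 0.0116) with overlapping arrays and was not called with slide as a block (-0.37, adjusted p = 0.244). It also missed without the compliant TGF-beta array of set 2 (-0.37, adjusted p = 0.0522) or the rigid TGF-beta array of set 2 (-0.36, adjusted p = 0.0508).

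**Figure D2:**
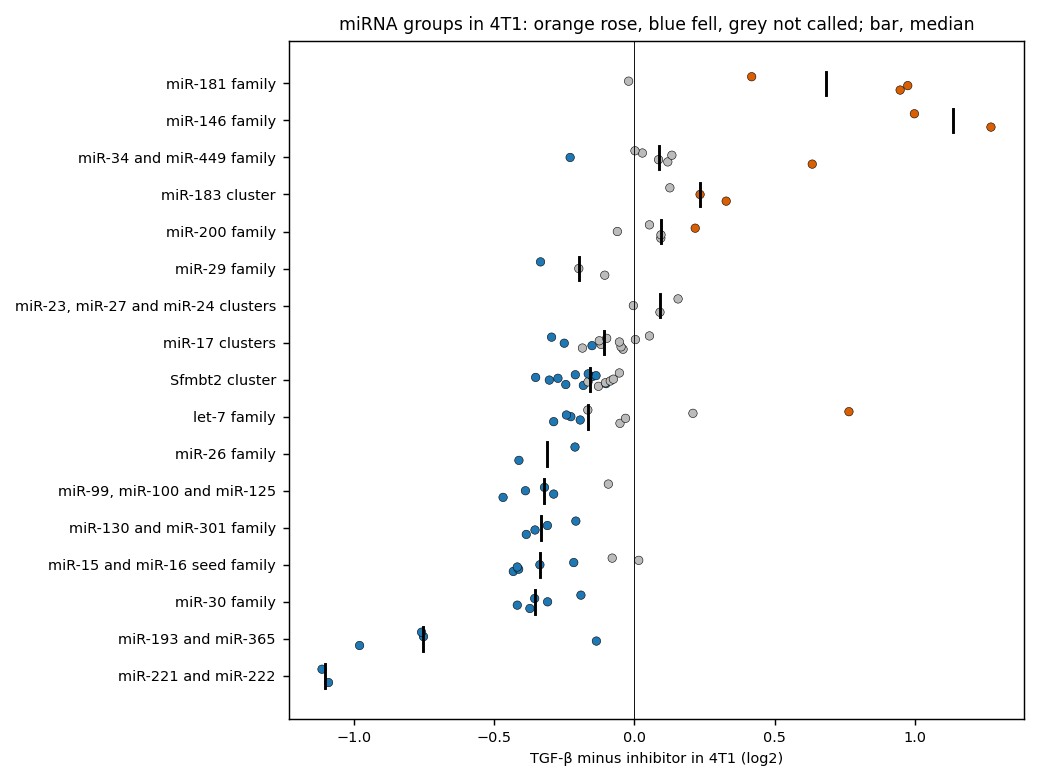
Difference between TGF-beta and inhibitor in 4T1 (log2, horizontal) for each tested member of 17 miRNA groups (rows); orange points rose, blue points fell, grey points were not called, and the bar is the median of the group. All tested members of the miR-30, miR-26, miR-130 and miR-301, miR-193 and miR-365, and miR-221 and miR-222 groups are blue, and the let-7 row holds let-7i at 0.76 to the right of 8 others.

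Read by group, the falls were spread over several families whose members moved alike. The groups and lists here and below were chosen with earlier results of these data known. Their counts beside the shares of all tested are therefore descriptive. Against 19.2% of all tested miRNAs that fell, 5 of 5 miR-30 members fell (median -0.36), led by miR-30a at -0.37 (adjusted p = 5.66e-06) and miR-30d at -0.36 (adjusted p = 2.25e-05). The miR-30 family is known to repress Snai1. All 4 tested members of the miR-130 and miR-301 family fell (median -0.33), both miR-26 members fell (median -0.31), and 4 of 5 members of the miR-99, miR-100 and miR-125 group fell (median -0.32). Of 7 miRNAs with the miR-15 and miR-16 seed, 5 fell (median -0.34). In the miR-17 clusters 3 of 12 tested fell (miR-18a, miR-19a and miR-92a), near the share of all tested that fell. The median of these clusters was -0.11, and 0.0087 without normalization between arrays. With slide as a fixed block 32 of all 365 tested fell. The counts were then 2 of 5 for miR-30, 3 of 4 for miR-130 and miR-301, and 1 of 2 for miR-26. They were 3 of 5 for miR-99, miR-100 and miR-125, and 0 of 7 for the miR-15 and miR-16 seed. For the miR-17 clusters the count with that block was 0 of 12. Without normalization 8 of all 365 tested fell. None of the members of the first 4 of these groups was then called, nor any of the miR-17 clusters, and 1 of 7 with the miR-15 and miR-16 seed was. The medians of these 5 groups, the miR-17 clusters left out, were then -0.20, -0.19, -0.21, -0.11 and -0.21. Leaving out the compliant inhibitor array of set 1 put the miR-17 clusters at 5 of 12, where 82 of all 365 fell. The 3 miR-181 members, both miR-146 members, both members of the miR-221 pair and 3 of the 4 of the miR-193 and miR-365 group passed with the slide block too.

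In the Sfmbt2 cluster, a large rodent miRNA cluster within an intron of Sfmbt2, 10 of 16 tested probes fell, against 19.2% of all tested, and none rose (median -0.16, and -0.0059 without normalization). The falls numbered 5 without the compliant inhibitor array of set 2 or the rigid TGF-beta array of set 1, and 6 without the compliant TGF-beta array of set 2. Of all 365 tested, 52, 54 and 60 fell without these arrays in turn. Median scaling over the probes detected on all arrays gave 5, where 56 of all 365 fell. The authors' deposited value table gave 4 of the 14 probes tested in it, where 55 of all 338 fell. Without normalization there were 0, where 8 of all 365 fell. Its lowest was miR-467b* at -0.35 (adjusted p = 0.00140). Several of these probes have near-identical relatives and carry more than 1 name. In the imprinted Dlk1-Dio3 cluster 5 of 32 tested probes rose, near the 12.6% of all tested, and 1 fell, with a median of 0.04. The rises numbered 3 without the array of set 2 from compliant inhibitor, compliant TGF-beta or rigid TGF-beta culture. Of all 365 tested, 38, 40 and 42 rose without these arrays in turn. With slide as a block or without normalization there were 2, where 18 and 21 of all 365 rose. Median scaling over the probes detected on all arrays gave 8, where 68 of all 365 rose. The authors' deposited value table gave 8 of the 30 probes tested in it, where 77 of all 338 rose.

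MiRNAs reported elsewhere as raised by TGF-beta rose in 5 of 9 tested cases, against 12.6% of all tested (miR-155, miR-182, miR-199a-5p, miR-21 and miR-491, with a median of 0.18 over the 9), and none fell. MiR-143, among the 9, was detected on no 4T1 array, so no response was measured for it. The lists of this paragraph were chosen with earlier results of these data known, so their counts are no independent support. Without the rigid TGF-beta array of set 1 the rises numbered 3, where 43 of all 365 tested rose. Only miR-21 and miR-182, 2 of the 9, passed with the slide block, where 18 of all 365 rose. Of those reported as lowered by TGF-beta, 6 of 16 fell, against 19.2% of all tested, and 1 rose. The median of these 16 was -0.08. Without normalization it was 0.03 and none was called, where 8 of all 365 fell. MiR-205, among the 16, was detected on no 4T1 array. The 6 that fell were miR-29c (-0.33), a collagen repressor, and the 5 miR-30 members, of which miR-30a and miR-30d were called with slide as a block and miR-29c was not (-0.24, adjusted p = 0.150). The 1 that rose was miR-200c, at 0.22 (SE 0.05, adjusted p = 0.00474, overlapping arrays), a repressor of Zeb1 and Zeb2 that holds the epithelial state. The slide block left it at 0.17 (adjusted p = 0.127). The other 4 miR-200 members, miR-200a, miR-200b, miR-141 and miR-429, did not pass, and the median of the 5 was 0.09. The miR-183 cluster, encoded on 1 transcript, gave rises of miR-182 (0.33, adjusted p = 0.000166) and miR-183 (0.23, adjusted p = 0.00218), while miR-96 did not pass, and with slide as a block miR-183 was not called (0.21, adjusted p = 0.146). Among miRNAs raised by inflammatory signalling in many cells, 5 of 7 rose, against 12.6% of all tested (miR-146a, miR-146b, miR-132, miR-21 and miR-155), miR-212 did not pass, and miR-9 fell by 0.24 (SE 0.05, adjusted p = 0.00110). Neither miR-155 (0.13, adjusted p = 0.354) nor miR-9 (-0.20, adjusted p = 0.0875) was called with slide as a block. The miR-155 arrays of the treatments overlap.

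The lists linked to metastasis held calls in both directions, against 12.6% of all tested miRNAs that rose and 19.2% that fell. These lists too were chosen with earlier results of these data known. Of 9 tested miRNAs reported as metastasis promoting, 3 rose (miR-21, miR-155 and miR-182) and 4 fell (miR-210, miR-221, miR-222 and miR-9). Of 10 reported as suppressing it, 4 rose (miR-22, miR-34a, miR-146a and miR-146b) and 4 fell (miR-30a, miR-30e, miR-31 and miR-193b). MiR-206, among the 10, was detected on no 4T1 array. The falls of the second list numbered 2 without the compliant inhibitor array of set 2, the compliant TGF-beta array of set 1, the rigid inhibitor array of set 1 or the rigid TGF-beta array of set 1. Of all 365 tested, 52, 63, 61 and 54 fell without these arrays in turn. Without normalization the second list had 1 fall, where 8 of all 365 fell. The medians of the 2 lists were -0.11 and -0.01, and without normalization 0.05 and 0.13. The second was also above 0, at 0.02, with median scaling over the probes detected on all arrays.

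Both strands of a hairpin were tested for 44 pairs of a passenger probe and its guide. In 6 pairs both were called, all 6 in the same direction: upward for miR-22, miR-181a with its chromosome 2 passenger, and miR-183, and downward for miR-31, miR-193 and miR-30a. In 14 pairs the guide alone was called and in 3 the passenger alone, where 31.8% of all tested probes were called. MiR-181a, miR-24 and miR-30c enter a pair with each of their passenger probes, so the pairs are not all separate. MiR-181a is in both the 6 and the 14, and miR-30c is in the 14 with each passenger. For several leaders the passenger gave a value near 0 beside a large change of the guide: let-7i* gave 0.04, miR-21* 0.10, miR-15a* -0.02 and miR-30b* 0.03, none of them called, against 0.76, 0.57, -0.43 and -0.42 for their guides. MiR-146b* gave 0.13 (adjusted p = 0.0657) beside 1.0 for miR-146b, and passed in 4 of the alternatives run. A difference between strands was not itself tested.

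Most called miRNAs moved in the same direction in compliant and in rigid culture. In compliant culture 65 miRNAs passed (17.8%), 26 higher (7.12%) and 39 lower (10.7%), and in rigid culture 67 passed (18.4%), 21 higher (5.75%) and 46 lower (12.6%). The rigid split was 15 and 61 with median scaling over all miRNA probes and 36 and 26 with median scaling over the probes detected on all arrays, and without normalization the splits were 14 and 6 in compliant and 13 and 6 in rigid culture. Of the main calls, 42 passed in both with the same sign (11.5%), 15 upward and 27 downward, and none passed in both with opposite signs. Without the rigid inhibitor array of set 1, the rigid count was 38. Of the 116 miRNAs called over both microenvironments, 115 had the same sign in each (31.5% of those tested), and the exception was miR-466c-5p. The sign was also the same in both sets for 114 (31.2%). The call rests on the mean over both microenvironments and both sets. Agreement of sign among the 116 is therefore largely set by that choice and is no separate test. The compliant and the rigid response correlated at r = 0.853 across the 365 miRNAs, which share slides and normalization and are not independent of each other.

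**Figure D3:**
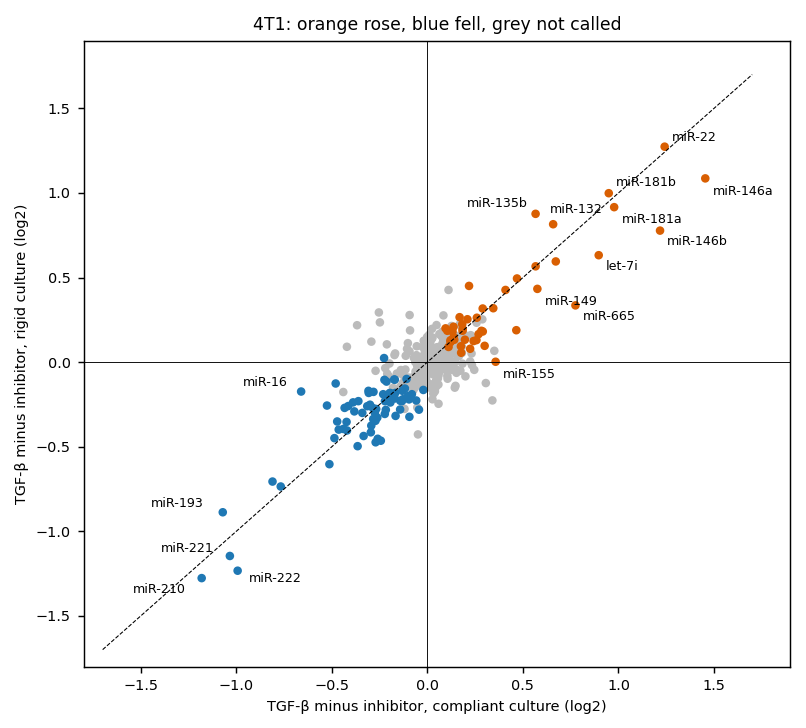
Difference between TGF-beta and inhibitor (log2) in compliant culture (horizontal) against rigid culture (vertical) for 365 miRNAs, 2 arrays against 2 on each axis; orange rose and blue fell over both, and the dashed line marks equal responses. MiR-22, miR-181a and miR-181b lie near the line, and miR-146a (1.45 and 1.09) and miR-146b (1.22 and 0.78) lie below it.

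No miRNA passed limma's test of the difference between the rigid and the compliant response (0%), and 29 had an unadjusted p under 0.05 (7.95%). Median scaling over all miRNA probes called 3, and leaving out single arrays gave 0 to 3. The smallest p belonged to miR-146b, whose rise was 1.22 in compliant and 0.78 in rigid culture, a difference of -0.44 (SE 0.10, adjusted p = 0.140). MiR-146a followed the same order, at 1.45 and 1.09 (difference -0.37, SE 0.11, adjusted p = 0.226). Under median scaling over all miRNA probes both passed, at -0.48 (adjusted p = 0.0245) and -0.43 (adjusted p = 0.0358). MiR-155, which in immune cells aids inflammatory signalling, read 7.37 and 7.62 against 7.88 and 7.82 in compliant culture and 7.77 and 7.76 against 7.84 and 7.69 in rigid culture. Its response was 0.36 in compliant and 0.00 in rigid culture (difference -0.35, SE 0.11, adjusted p = 0.226), and without the compliant inhibitor array of set 2 it passed (-0.48, adjusted p = 0.0357). The remaining 3 of the 6 smallest p were those of miR-125b-3p (-0.30), miR-20b (-0.29) and miR-466c-5p (0.25), each with an adjusted p of 0.226. MiR-125b-3p passed without that same array (-0.42, adjusted p = 0.0217), and miR-20b passed without the rigid TGF-beta array of set 2 (-0.42, adjusted p = 0.00386).

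The 4T1 response was set against that of the sister lines, which were measured alike. Of 365 miRNAs, 28 differed in their response between 4T1 and the mean of 67NR and 4TO7 (7.67%), 14 more positive (3.84%) and 14 more negative (3.84%) in 4T1. Against 67NR alone 25 differed (6.85%), 15 more positive (4.11%) and 10 more negative (2.74%). Against 4TO7 alone 41 differed (11.2%), 17 more positive (4.66%) and 24 more negative (6.58%). Without normalization the splits were 10 and 1, 29 and 0, and 6 and 3. The authors' deposited value table, with 338 tested, gave 16 and 17 against 67NR. Without the compliant inhibitor array of set 1, the first count was 47. On their own, 40 miRNAs passed in 67NR (11%), 12 higher (3.29%) and 28 lower (7.67%), and 78 in 4TO7 (21.4%), 35 higher (9.59%) and 43 lower (11.8%).

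**Figure D4:**
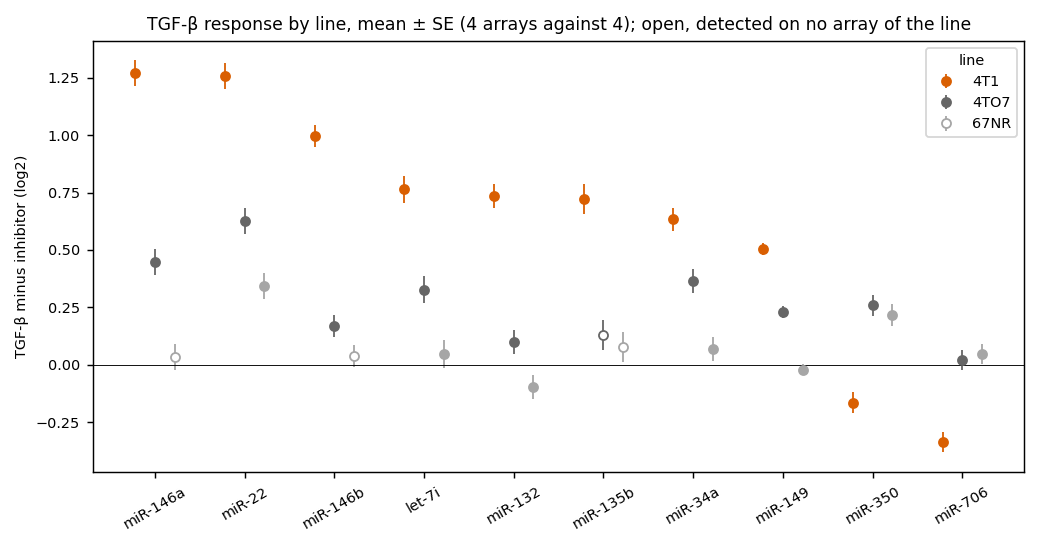
Difference between TGF-beta and inhibitor (log2, vertical; mean and SE from the fit, 4 arrays against 4) in 4T1 (orange), 4TO7 (dark grey) and 67NR (light grey) for the 10 miRNAs with the smallest p for the difference between 4T1 and the mean of the other lines; open points were detected on no array of that line. MiR-22 stood at 1.26, 0.62 and 0.34 in that order of lines, and miR-350 was below 0 in 4T1 and above it in the others.

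MiR-146a and miR-146b were detected on all 8 arrays of 4T1 and on none of 67NR. In 4TO7 miR-146a was detected on 2 TGF-beta arrays and no inhibitor array, and miR-146b on 3 TGF-beta arrays and 1 inhibitor array. MiR-135b was detected on no array of 67NR or 4TO7, and in 4T1 with TGF-beta alone. For these 3 the fit sets 4T1 against values at or near background. MiR-22 rose in all 3 lines, and the rise was 0.77 larger in 4T1 than the mean of the others (SE 0.07, adjusted p = 6.91e-07). Let-7i rose by 0.33 in 4TO7 and gave 0.05 in 67NR, where it did not pass (difference 0.58, SE 0.07, adjusted p = 5.78e-05). MiR-34a had the same order, at 0.63 in 4T1, 0.36 in 4TO7 and 0.07 in 67NR, the last not called (difference 0.42, SE 0.06, adjusted p = 0.000221).

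MiR-132 was called in 4T1 alone of the 3 lines, at 0.74 against 0.10 in 4TO7 and -0.10 in 67NR (difference 0.73, SE 0.06, adjusted p = 5.32e-07). It was detected on all inhibitor arrays and on no TGF-beta array of 67NR, so the value there is limited by background. MiR-149 was detected on 1 of the 8 arrays of 67NR, which leaves no measured response there. Against 4TO7, where 6 arrays detected it, its response was 0.27 larger in 4T1 (SE 0.04, adjusted p = 5.84e-05). Where 4T1 was the lower, miR-350 fell by 0.16 in 4T1 (SE 0.05, adjusted p = 0.0139) and rose in 67NR (0.22) and 4TO7 (0.26), a difference of -0.40 (SE 0.06, adjusted p = 0.000164). Within 4T1 its fall was -0.06 (adjusted p = 0.597) with slide as a block. MiR-706 fell by 0.34 in 4T1 and gave 0.05 and 0.02 in the others (difference -0.37, SE 0.05, adjusted p = 0.000169). Its 4T1 arrays overlap, since the rigid arrays read higher than the compliant ones, at 8.93 and 8.97 against 8.52 and 8.56 in compliant culture and 9.34 and 9.28 against 9.05 and 9.05 in rigid culture.

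Other leaders of the 4T1 response moved in the sister lines too. MiR-181a rose by 0.79 in 67NR and 0.90 in 4TO7, and its difference from 4T1 did not pass (adjusted p = 0.20 against the mean of both). MiR-221 and miR-222 fell by 0.97 and 0.94 in 67NR and by 1.16 and 1.17 in 4TO7 (adjusted p = 0.942 and 0.588 for the difference). MiR-193 fell by 0.92 in 67NR and 0.59 in 4TO7, and miR-210 by 0.85 and 0.43. The miR-210 response of 4T1 was the larger, by -0.59 against the mean of both (adjusted p = 0.00149). A p above the threshold does not show that responses were equal. MiR-155, not among the leaders, had a mean of 7.63 with inhibitor and 7.81 with TGF-beta in 4T1. In 4TO7 its mean was 6.58 with inhibitor, where no array detected it, and 7.73 with TGF-beta, where all 4 did. In 67NR the means were 7.47 and 7.52.

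The markers of the labelled cell type were checked on the same arrays. Of 7 epithelial miRNAs (the miR-200 family, miR-203 and miR-205), 6 were detected in 4T1, and miR-205 was on none of its arrays. The summed level of all 7, in log2, was 10.77 to 10.92 with inhibitor and 10.94 to 10.97 with TGF-beta. Sums here include the signal of undetected probes, which is background. Of 6 mesenchymal miRNAs, 4 were detected in 4T1 and 5 tested. Of the 5, 1 rose (miR-199a-5p) and 0 fell, against 12.6% and 19.2% of all tested, with a median of 0.06. With slide as a block 0 of the 5 were called. The summed level of all 6 was 12.85 to 13.17 with inhibitor and 12.91 to 12.98 with TGF-beta. Of 6 blood miRNAs, miR-451 alone was detected. The summed level of all 6, undetected probes included, was 10.4 to 10.7 with inhibitor and 10.5 to 10.8 with TGF-beta. Neither endothelial marker was detected, and their sum of 7.92 to 8.14 with inhibitor is background. Of 6 muscle markers 1 was detected, miR-208b, which gave -0.36 (SE 0.07, adjusted p = 0.00111). With slide as a block it gave -0.26 and was not called (adjusted p = 0.164). Of 7 neural and liver markers 4 were detected and none passed. Of 15 embryonic stem cell miRNAs 7 were detected and 6 tested. Of the 6, 2 rose and 1 fell, against 12.6% and 19.2% of all tested. With slide as a block none of the 6 was called, where 18 of all 365 tested rose and 32 fell. These lists are small, and their part in the response was not tested. In a bulk culture, a different share of cells of a type and a different level per cell cannot be told apart.

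Slide is the technical factor that moves with treatment. Slide 1 held the compliant inhibitor and the rigid TGF-beta array of set 2, slide 2 an inhibitor array of each microenvironment, slide 3 both compliant TGF-beta arrays and a rigid one, and slide 5 a rigid inhibitor array. No slide held both treatments of the same microenvironment in 4T1, so the sole comparison within a slide, on slide 1, also crosses microenvironments. There miR-22 was 1.06 higher on the rigid TGF-beta array than on the compliant inhibitor array, miR-181b 0.89 higher and miR-146a 0.46 higher, and miR-210 was lower, at -1.60, with miR-222 at -1.46 and miR-193 at -1.08. MiR-149, whose level was lower in rigid culture, gave 0.0064 there, and miR-16 gave 0.09 against its fall of -0.42.

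**Figure D5:**
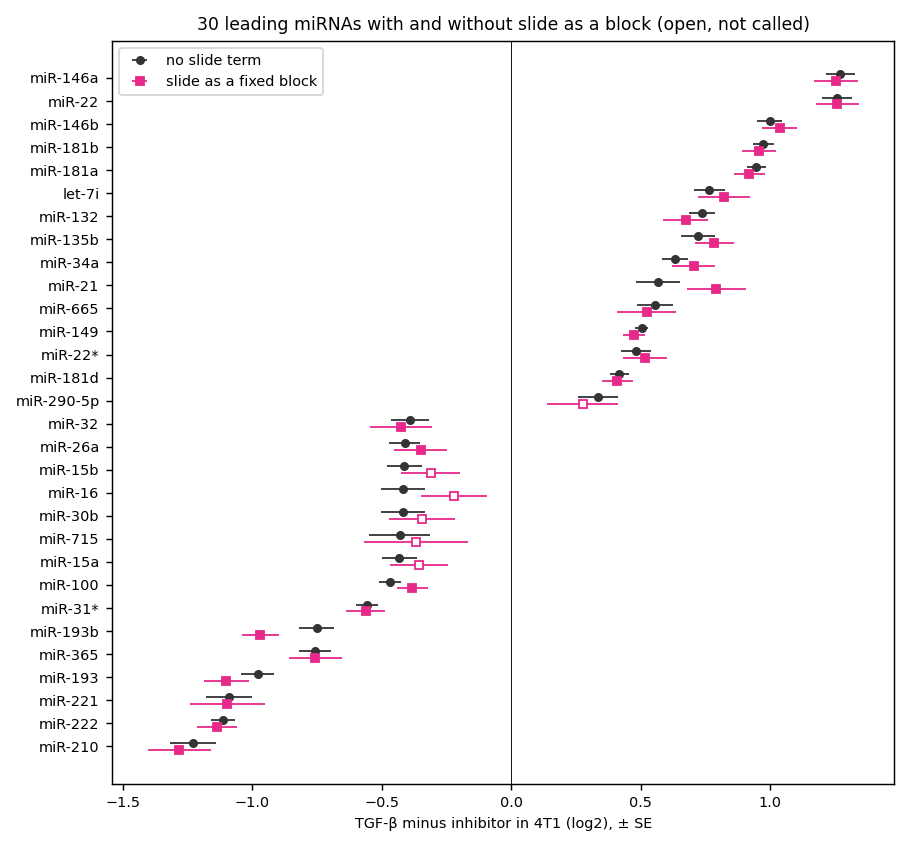
Difference between TGF-beta and inhibitor in 4T1 (log2, horizontal, with SE) for the 15 largest rises and 15 largest falls (rows), without a slide term (black circles) and with slide as a fixed block (pink squares); open squares were not called with the block. The open squares are miR-290-5p, miR-15b, miR-16, miR-30b, miR-715 and miR-15a, and miR-146a stood at 1.27 and 1.25.

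With slide as a fixed block, which borrows its slide estimates from the other lines on the same slides, all 116 called miRNAs kept their sign, and the median SE was 1.56 times as large. Of the 30 leading miRNAs 24 were called with the block. MiR-146a gave 1.25, miR-22 1.26, miR-181b 0.96 and let-7i 0.82, and miR-210 gave -1.28, miR-222 -1.14 and miR-193b -0.97.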

How the data were processed

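Total RNA with small RNAs was hybridised to 2-dye miRNA arrays, the sample in 1 dye and a synthetic reference in the other. The deposited intensity values are linear, background-subtracted and label-corrected, per the file headers, with no scaling between arrays, and come with a deposited detection p-value per probe. The authors' deposited value table holds the same values as log2 plus a constant per array (largest deviation 5.9e-06). Image software versions and genome build are not given in the sources used here.

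Log2 intensities were quantile normalised in R 4.3.3. A probe was tested if 1 or more groups had a detection p under 0.05 on both arrays and if its reference failed on fewer than 12 arrays (365 of 558). Limma 3.58.1 fitted 12 group means to the 24 arrays (12 residual degrees of freedom, median residual SD 0.0764), with a mean-variance trend and Benjamini-Hochberg adjustment, and was tested on simulated data. Each 4T1 group has 2 arrays, whose number limits the precision. Named miRNAs are the 15 largest rises and 15 largest falls called with the same sign in both microenvironments and sets, their other strands, the 6 smallest p between microenvironments and the 10 smallest p against the sister lines, plus list members named for their group. The members and lists were chosen with earlier results of these data known. Alternatives changed the scaling, the probe filter, slide as a fixed or random block, array weights, the trend and the arrays included.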

Additional observations from a re-analysis of the deposited data

Results flagged for a closer look

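Limma's test of the difference in response between 4T1 and the mean of 67NR and 4TO7 picked out the 10 miRNAs named for it. The fitted difference was positive for miR-146a (1.03), miR-146b (0.89), miR-22 (0.77), miR-132 (0.73), miR-135b (0.62), let-7i (0.58), miR-34a (0.42) and miR-149 (0.40). It was negative for miR-350 (-0.40) and miR-706 (-0.37). MiR-146a, miR-146b and miR-135b were detected on no 67NR array, and miR-135b on no 4TO7 array, while miR-149 was detected on 1 of 8 arrays of 67NR and miR-132 on no TGF-beta array there. For these 5 a sister line has no response measured above background in both treatments, so the fitted value is no measured difference of responses. MiR-146a was also not detected on the 4TO7 inhibitor arrays. The other 5 were detected on all arrays of the 3 lines. No 4T1 group has more than 2 arrays, too few to look for a single array far from the others.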

How the results depend on the processing

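Of the miRNAs that changed in 4T1 (116), 115 kept their sign under both median scalings and 107 without normalization between arrays, where 27 of them were still called. Without normalization the counts were 29 for 4T1, 20 for compliant, 19 for rigid, 9 against 4TO7 and 11 against the mean of both sister lines. With slide as a fixed block they were 50, 34, 38, 24 and 17, and 14 against 67NR. Among probes detected on all 24 arrays, 12 differed against 67NR and 17 against the mean of both. Leaving out single arrays gave 90 to 139 for 4T1, 45 to 90 for compliant, 38 to 74 for rigid, 31 to 54 against 4TO7, 19 to 35 against 67NR, 23 to 47 against the mean of both and 0 to 3 for the difference between microenvironments, which median scaling over all miRNA probes put at 3. Without normalization 9 of the called miRNAs turned sign, as did the medians of the lists named for it above. Among the miRNAs named singly, the passenger strands turned: let-7i* (-0.0059 to 0.083 over single arrays left out, lowest without the compliant inhibitor array of set 2), miR-15a* at 0.10 and miR-193* at 0.0074 without normalization, miR-30b* at -0.014 with slide as a block, and miR-15a* at 0.0070, 0.013 and 0.0089 without single arrays, within a range of -0.049 to 0.013. The differences of miR-350 and miR-706 from the sister lines were not called without normalization (-0.25 and -0.17, adjusted p = 0.626 and 0.656). The cause was not tested. The labels share set numbers between groups without saying what a set is, and same-numbered arrays deviated together at r = 0.23 to 0.49 over 6 pairs of groups. With the set number as a replicate block 135 miRNAs passed in 4T1, 91 in compliant, 79 in rigid, 47 against 4TO7, 31 against 67NR, 34 against the mean of both and 0 between microenvironments. Signal over background limits the rest: 185 of 558 miRNAs were detected on no 4T1 array, and no level is known for them.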
